A study of Mus musculus with 8 samples.

Results

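Cytochrome P450 genes were described in epithelium of 4 regions of the embryonic mouse gut, taken at E16.5 in late gestation. The family was taken as the rows of the deposited expression table whose symbol is Cyp, a family number, a subfamily letter or letters and a gene number, which gave 92 genes of the 23393 listed. Pseudogenes fall outside that pattern, as do P450 enzymes with other symbols, such as the sterol demethylase Cyp51. There were 8 poly(A) RNA libraries, 2 from each of colon, proximal small intestine (called intestine here), hindstomach (the glandular part of the rodent stomach) and forestomach (its squamous part). The protocol describes 1 genotype for the E16.5 work, ShhCre;R26YFP/+, in which Cre driven from the Shh locus switches on a fluorescent reporter in gut epithelium, and no treatment was given. EDTA with shaking freed the epithelium of colon, intestine and hindstomach, and the hindstomach needed a stronger solution, whereas forestomach epithelium was loosened with Dispase and peeled off by hand. Tissue and isolation method therefore cannot be told apart for the forestomach, nor tissue and EDTA concentration for the hindstomach. The labels number the libraries as replicates and do not name the embryos behind them, so the p-values speak for the scatter of these libraries alone, and that scatter may be technical.

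P450 enzymes are haem proteins that use molecular oxygen to hydroxylate or epoxidise their substrates. Most sit in the endoplasmic reticulum and receive electrons from the reductase Por, while a few work in mitochondria with ferredoxin. Families 1 to 3 are known mainly for foreign compounds, drugs and eicosanoids, family 4 for the hydroxylation of fatty acids and leukotrienes, and the higher numbered families for sterols, steroid hormones, bile acids, vitamin D and retinoic acid. In the adult mouse the liver holds the highest levels of many members, and the small intestine is a main site of P450 metabolism outside it.

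Mouse P450 genes lie in arrays of close relatives. Of the 92 members, 63 lay in 7 clusters of at least 5 members, with neighbouring members less than 1 Mb apart, in the GENCODE M21 annotation of GRCm38. The longest list of neighbours is the Cyp2c array on chromosome 19, from 39007019 to 40187333, with 14 members. The letters CAAAGTCCA, which match the half-sites bound by the nuclear receptor HNF4, were looked for on both strands in the RefSeq promoter windows of GRCm38.p6, each from 250 bases before to 50 after a gene's start. They occurred in 0.475% of 32851 windows, in 6 of the 13 Cyp2c members with a window and in 3 of the 60 other members with one (Cyp3a11, Cyp3a16 and Cyp8b1). The percentage counts windows and the members are counted as genes. Related members are not independent occurrences, and the stretches of Cyp2c40 and Cyp2c69 below are identical. Letters of other elements were searched as well and are not shown. Of 26 tested members with a window, 4 held the HNF4 letters and 8 a TATA box (13.6% of all windows). Those of CDX were in 1 (11.85%), GATA in 4 (11.2%), the aryl hydrocarbon receptor in 1 (5.07%) and SREBP in 2 (1.24%). The Cyp2c stretches are shown because this subfamily gave the most tested members of family 2, and because neighbours with similar windows were found at different levels. Each runs 5′ to 3′ on the gene's strand, with the matching letters in capitals, or for Cyp2c66 the letters that align with those of its neighbour Cyp2c65.
Cyp2c65, chr19:39060865-39060924, plus strand: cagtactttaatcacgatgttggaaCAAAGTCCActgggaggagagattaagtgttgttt
Cyp2c66, chr19:39113769-39113828, plus strand: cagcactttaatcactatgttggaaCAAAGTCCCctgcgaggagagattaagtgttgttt
Cyp2c67, chr19:39649133-39649192, minus strand: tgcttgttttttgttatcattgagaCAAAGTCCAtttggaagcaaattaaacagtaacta
Cyp2c68, chr19:39741144-39741203, minus strand: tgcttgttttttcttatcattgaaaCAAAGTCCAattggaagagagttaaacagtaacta
Cyp2c40, chr19:39812825-39812884, minus strand: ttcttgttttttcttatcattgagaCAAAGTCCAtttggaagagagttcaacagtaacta
Cyp2c69, chr19:39886810-39886869, minus strand: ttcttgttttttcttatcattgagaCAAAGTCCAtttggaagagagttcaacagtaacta
Cyp2c70, chr19:40187316-40187375, minus strand: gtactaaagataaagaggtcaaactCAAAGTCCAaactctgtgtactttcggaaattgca
The Cyp2c66 letters differ from those of Cyp2c65 by A9C, counted from 1 at the first capital. Over the whole promoter windows Cyp2c65 and Cyp2c66 were 77.8% identical, and Cyp2c67 and Cyp2c68 were 65.9% identical. These matches describe the reference sequence and are not measured binding sites.

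The values are FPKM, fragment counts scaled to transcript length and to library size, which can be set side by side between genes because they are per length. Read counts are not in the table, so the depth is unknown. Steps in the low values put the relative depth of the libraries between 0.426 and 1 of that of intestine replicate 1, uncertain by a factor of 2. The library labelled forestomach replicate 1 stood apart. Its summed FPKM of 8 gastric glandular markers was 165103, against 44.3 in forestomach replicate 2 and 1382 to 1895 in the hindstomach libraries, and its 10 most abundant genes held 52.5% of summed FPKM, against 6.27% to 17.4% in the other 7 libraries. Its 8 squamous markers summed to 1259 FPKM, against 35247 in forestomach replicate 2. Over the genes tested the forestomach libraries correlated at 0.713 on the log2 scale, below the correlation of forestomach replicate 1 with either hindstomach library (0.778 and 0.802). Each comparison is therefore given with all libraries and without that library, which leaves the forestomach with 1 library whose spread is assumed to be like that of the other tissues. Colon replicate 1 also correlated more closely with intestine replicate 1 (0.972) than with colon replicate 2 (0.959), and it was kept in both fits.

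Of the 92 members, 6 were listed at 0 in every library and another 29 stayed under 0.1 FPKM throughout. A further 17 reached 0.1 but not 1 FPKM, 8 reached 1 FPKM in a single library, and 32 reached 1 FPKM in at least 2 libraries and were tested. The 32 are the members that passed the filter, not the family. By family number, 18 of the 47 genes of family 2 were tested, 8 of the 17 of family 4 and 1 of the 7 of family 3. The remaining 21 genes, in 13 families of 1 to 3 members, gave 5 tested genes, namely Cyp7b1, Cyp11a1, Cyp20a1, Cyp27a1 and Cyp39a1. Family 2 held 64.6% to 74.8% of all P450 FPKM in colon, 73.5% to 74.5% in intestine, 75.6% to 77.0% in hindstomach, and 79.6% and 42.2% in forestomach replicates 1 and 2.

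The summed P450 level was 444 and 270 FPKM in the colon libraries, 432 and 527 FPKM in intestine, 309 and 389 FPKM in hindstomach, and 401 and 493 FPKM in forestomach. The colon libraries spanned the range of the hindstomach, and both intestine and both forestomach libraries lay above both hindstomach libraries. As a share of each library's total FPKM, P450 genes made up 0.131% and 0.0821% in colon, 0.123% and 0.149% in intestine, 0.0858% and 0.109% in hindstomach, and 0.0735% and 0.130% in forestomach. On that scale the intestine was still above the hindstomach, and forestomach replicate 1 was the lowest library. Cyp2d26 was the most abundant member in colon replicate 1 and in all intestine and hindstomach libraries, Cyp2w1 in colon replicate 2, Cyp2c65 in forestomach replicate 1 and Cyp4f39 in forestomach replicate 2. The 5 most abundant members made up 56.3% to 69.1% of the P450 level in the colon, intestine and hindstomach libraries and 80.5% and 87.0% in the forestomach libraries. In bulk tissue, fewer cells of a type and less RNA per cell cannot be told apart.

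**Figure D1:**
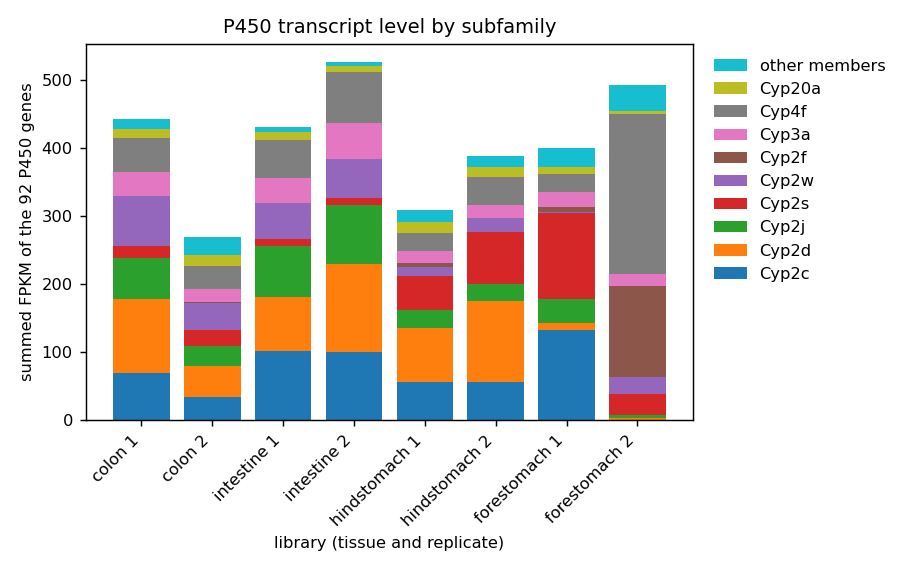
Stacked bars give the summed FPKM of the 92 P450 genes in each library on a linear axis, coloured by subfamily, with colon, intestine, hindstomach and forestomach from left to right. Cyp2d, Cyp2c and Cyp2j make up much of the bars from colon, intestine and hindstomach, Cyp2s is larger in hindstomach than in colon or intestine, and forestomach replicate 2 is mostly Cyp4f (236 FPKM) and Cyp2f (134 FPKM).

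**Figure D2:**
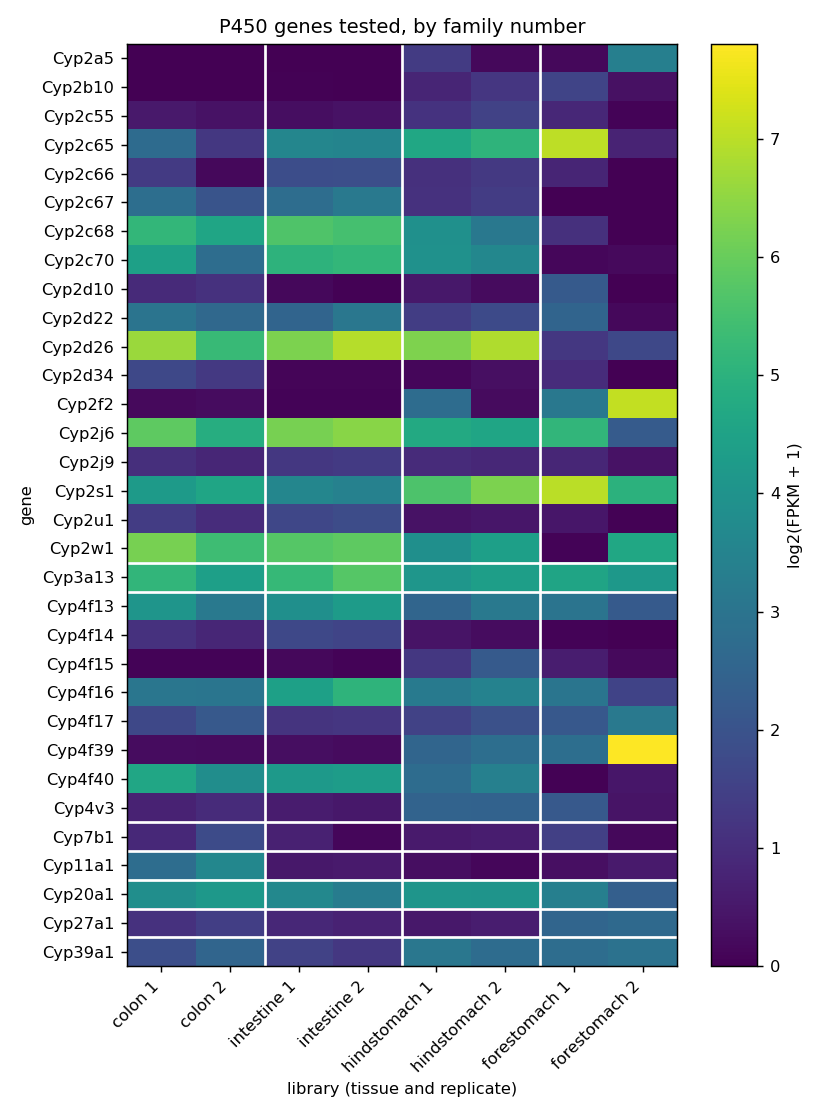
Colour gives log2(FPKM + 1) of the 32 tested P450 genes, 1 gene a row and 1 library a column, with white lines between families and between tissues. Cyp11a1 and Cyp2d34 are higher in the colon than in the intestine columns and Cyp4f16 is lower, and the forestomach columns differ from each other, among other rows at Cyp2c65, Cyp4f39, Cyp2w1 and Cyp2f2.

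Between the hindstomach and the forestomach, the glandular and the squamous stomach, 4 of the 32 tested members were called higher in hindstomach (12.5%, against 4.26% of the 12894 genes tested) and 1 lower (3.12%, against 1.33%). To be called, a gene needed a change of at least 2-fold and, by limma on log2(FPKM + 1), a p under 0.05 after Benjamini-Hochberg adjustment over all genes tested. The higher genes were Cyp2d26, Cyp2c68, Cyp2c70 and Cyp4f40, and the lower one was the sterol hydroxylase Cyp27a1. By limma 10 of the 32 members had an unadjusted p under 0.05, against 30.2% of all genes tested. The median log2 fold change was 0.27 over the members and 0.39 over all genes tested. Scaling the libraries by their median ratios moved the all-gene median to 0.05 and the share of higher genes among all called genes to 49.0%, against 76.1% as deposited, and left the number of called members at 5. All 5 calls were lost on leaving out either hindstomach library, and those of Cyp2c68 and Cyp2c70 on leaving out either intestine library.

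When the library labelled forestomach replicate 1 was left out, 12 of 29 tested members were called higher in hindstomach (41.4%, against 14.3% of 12502 genes) and 5 lower (17.2%, against 6.55%). Those called higher were Cyp20a1, Cyp2c55, Cyp2c65, Cyp2c68, Cyp2c70, Cyp2d22, Cyp2d26, Cyp2j6, Cyp4f15, Cyp4f16, Cyp4f40 and Cyp4v3. Those called lower were Cyp27a1, Cyp2a5, Cyp2f2, Cyp4f17 and Cyp4f39. On the forestomach side these calls rest on 1 library. Leaving out forestomach replicate 2 instead also raised the number of called members, which was not set beside the share of all genes. Cyp2c65 was then lower in hindstomach, by −2.18 on the log2 scale, so its direction turns with the forestomach library used.

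Between the intestine and the hindstomach, 3 of 32 tested members were called higher in intestine (9.38%, against 2.55% of all genes tested) and 1 lower (3.12%, against 2.47%). Cyp2c67, Cyp2u1 and Cyp4f14 were higher and the oxysterol hydroxylase Cyp39a1 was lower. By limma 14 of the 32 members had an unadjusted p under 0.05, against 25.6% of all genes tested. The median log2 fold change was 0.13 over the members and −0.25 over all genes tested. Scaling by median ratios moved the all-gene median to 0.00 and the share of higher genes among all called genes to 65.9%, against 50.8% as deposited. Leaving out either intestine or either hindstomach library left 0 calls among the members, and Cyp2u1 also lost its call without either colon library (adjusted p = 0.0542 and 0.0510). Leaving out the library labelled forestomach replicate 1, whose tissue is on neither side but adds to the pooled spread, gave 10 members called higher (34.5%, against 7.42%) and 6 called lower (20.7%, against 9.96%). Leaving out forestomach replicate 2 instead also raised the number called, which was not set beside the share of all genes. The 10 were Cyp2c67, Cyp2c68, Cyp2d22, Cyp2j6, Cyp2u1, Cyp2w1, Cyp3a13, Cyp4f14, Cyp4f16 and Cyp4f40. The 6 were Cyp2c55, Cyp2s1, Cyp39a1, Cyp4f15, Cyp4f39 and Cyp4v3.

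Between the colon and the intestine, Cyp11a1 was the 1 member called higher in colon (3.12%, against 0.38% of all genes tested), and 0 members were called lower, as were 0 of all genes (0%). By limma 7 of the 32 members had an unadjusted p under 0.05 in this comparison, against 14.2% of all genes tested. The median log2 fold change was −0.02 over the members and 0.23 over all genes tested. In the fit without the library labelled forestomach replicate 1, 2 members were called higher (6.9%, against 2.5%), Cyp11a1 and Cyp2d34, and 1 lower (3.45%, against 0.04%), the fatty acid hydroxylase family gene Cyp4f16. Without forestomach replicate 2 the number called also rose, and was not set beside the share of all genes.

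Between the colon and the hindstomach, which shares its colon libraries with one comparison above and its hindstomach libraries with the others, Cyp11a1 was again the 1 member called higher (3.12%, against 1.07%), and 0 were called lower (against 0.434%). By limma 13 of the 32 members had an unadjusted p under 0.05, against 12.3% of all genes tested. The median log2 fold change was 0.10 over the members and 0.02 over all genes tested. With the library labelled forestomach replicate 1 left out, 4 members were called higher (13.8%, against 4.49%), Cyp11a1, Cyp2d22, Cyp2d34 and Cyp2w1. There 5 were called lower (17.2%, against 3.1%), Cyp2c65, Cyp2s1, Cyp4f15, Cyp4f39 and Cyp4v3. Without forestomach replicate 2 the number called rose as well, and was not set beside the share of all genes.

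**Figure D3:**
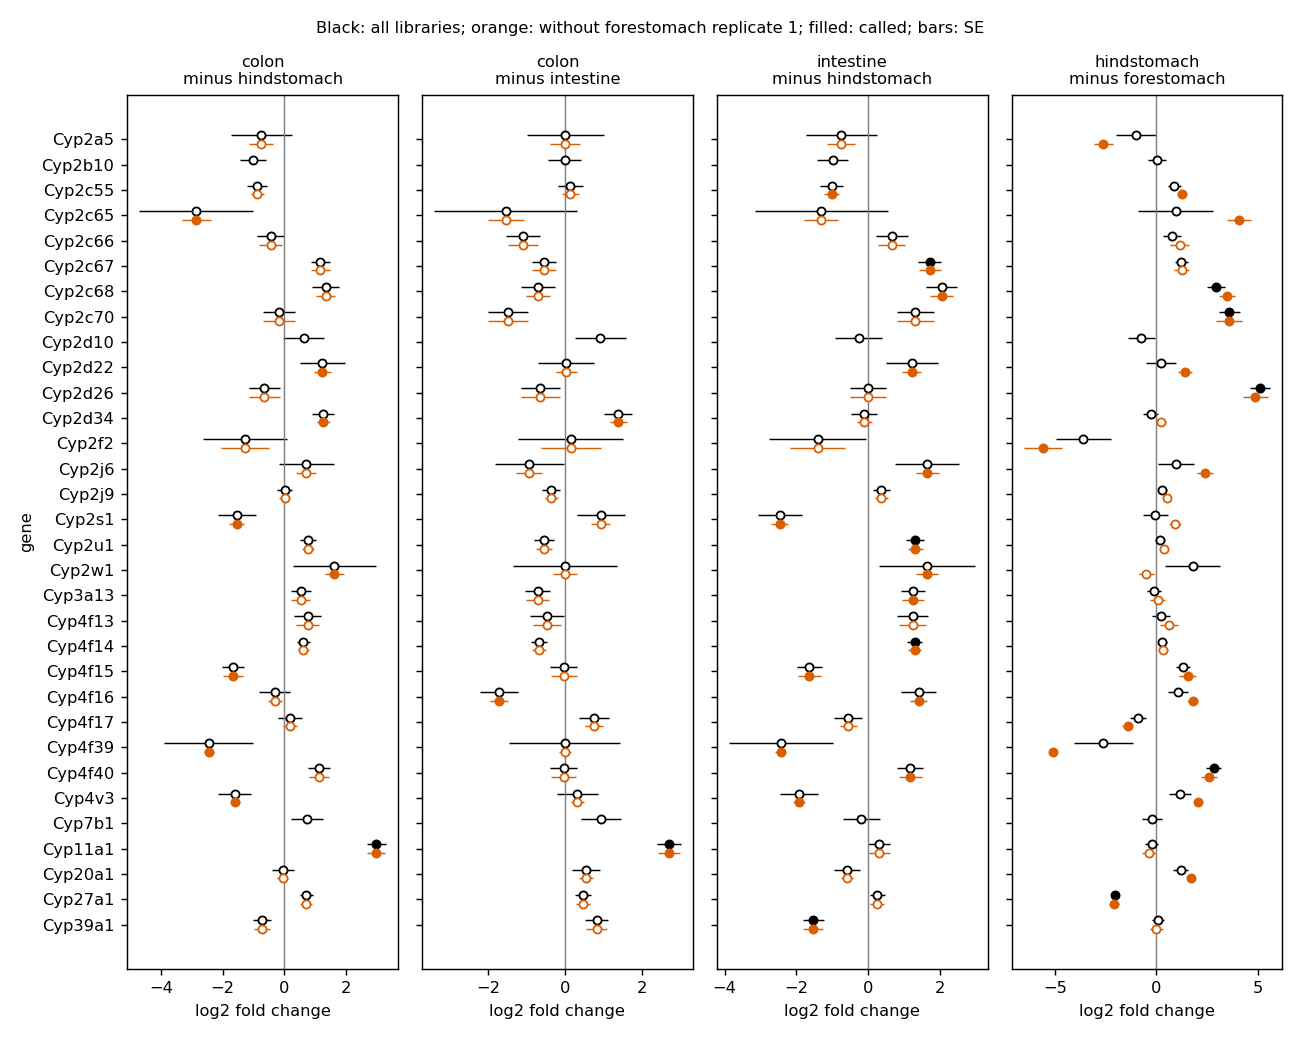
Points are log2 fold changes on the log2(FPKM + 1) scale with 1 SE, by gene, in the 4 comparisons, black with all libraries and orange without the library labelled forestomach replicate 1, filled where the gene was called. Only Cyp11a1 is filled in black in both colon panels, and the orange points of hindstomach minus forestomach reach further from 0 on both sides than the black ones for Cyp2c65, Cyp2f2 and Cyp4f39.

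Within family 2, the Cyp2c subfamily contains arachidonic acid epoxygenases and, in the mouse, a bile acid hydroxylase. Of its 14 genes 6 were tested, and the subfamily summed to 69.5 and 34.1 FPKM in colon, 101 and 101 FPKM in intestine, 55.9 and 56.6 FPKM in hindstomach, and 132 and 0.917 FPKM in forestomach. Nearly all of the forestomach replicate 1 value came from Cyp2c65.

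Cyp2c68 measured 34.8 and 23.1 FPKM in colon, 49.1 and 44.3 FPKM in intestine, 14.1 and 7.73 FPKM in hindstomach, and 1.13 and 0.0208 FPKM in forestomach. Both intestine libraries lay above both colon libraries, these above both hindstomach libraries, and these above the forestomach. Hindstomach exceeded forestomach by 2.96 ± 0.44 on the log2 scale (SE, limma adjusted p = 0.0228). Intestine exceeded hindstomach by 2.05, which was called without the library labelled forestomach replicate 1 (adjusted p = 0.00915) and not with all libraries. Its neighbour Cyp2c67 measured 6.04 and 3.11 FPKM in colon, 5.89 and 7.97 FPKM in intestine, 1.16 and 1.61 FPKM in hindstomach, and 0.0204 and 0 FPKM in forestomach. The order of tissues was similar at a lower level, with colon and intestine overlapping, and intestine exceeded hindstomach by 1.73 ± 0.32 (adjusted p = 0.0384, and 0.0869 with a replicate block). The call was lost with a pseudocount of 0.1 (adjusted p = 0.0510) and without a filter on low values (adjusted p = 0.0755). Both genes are uncertain, since 52.8% of the 50-base stretches of Cyp2c67 transcripts and 43.3% of those of Cyp2c68 also occur in transcripts of other genes, mostly of Cyp2c40.

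Cyp2c70, which in the mouse makes muricholic acids from chenodeoxycholic acid, measured 20.7 and 5.87 FPKM in colon, 31.9 and 34.6 FPKM in intestine, 14.3 and 11.2 FPKM in hindstomach, and 0.111 and 0.136 FPKM in forestomach. The intestine was above all other libraries, and the colon libraries lay on both sides of the hindstomach. Hindstomach exceeded forestomach by 3.60 ± 0.51 (adjusted p = 0.0198). None of its 50-base stretches occurred in another gene's transcripts.

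Cyp2c65, an arachidonic acid epoxygenase of the mouse gut, had another order in the tissues freed with EDTA. It measured 5.65 and 1.41 FPKM in colon, 10.999 and 10.4 FPKM in intestine, 23.8 and 32.6 FPKM in hindstomach, and 129 and 0.698 FPKM in forestomach. The colon, intestine and hindstomach libraries did not overlap, while the forestomach libraries held the highest and the lowest value of all. With all libraries no comparison was called, and without the library labelled forestomach replicate 1 the colon was lower than the hindstomach, by −2.85 ± 0.47 (adjusted p = 0.0208). Its neighbour Cyp2c66, with the similar promoter printed above, measured 1.51 and 0.125 FPKM in colon, 2.55 and 2.64 FPKM in intestine, 1.12 and 1.45 FPKM in hindstomach, and 0.752 and 0.0184 FPKM in forestomach. Its highest level was in intestine, below every value of Cyp2c65 in intestine and hindstomach, and it was called in no comparison. Of the 50-base stretches of Cyp2c65 20.2% occur in Cyp2c66 transcripts, and of those of Cyp2c66 19.5% occur in Cyp2c65 transcripts.

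The sixth tested gene, Cyp2c55, measured 0.455 and 0.311 FPKM in colon, 0.224 and 0.293 FPKM in intestine, 1.21 and 1.91 FPKM in hindstomach, and 0.835 and 0.0449 FPKM in forestomach, and was highest in hindstomach. The other 8 Cyp2c genes stayed between 0 and 0.341 FPKM, the highest being Cyp2c40 in intestine. The HNF4 letters lay in the windows of Cyp2c40 and Cyp2c69, which stayed below 0.4 FPKM, as well as in those of the tested Cyp2c65, Cyp2c67, Cyp2c68 and Cyp2c70. The Cyp2c40 value is uncertain too, since 40.0% of the 50-base stretches of Cyp2c67 and 35.6% of those of Cyp2c68 occur in its transcripts. For Cyp2c40 and Cyp2c69 themselves, which were not tested, shared stretches were not counted.

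The levels of the receptor itself are given beside these. Hnf4a measured 149 and 104 FPKM in colon, 166 and 165 FPKM in intestine, 63.4 and 53.8 FPKM in hindstomach, and 26.4 and 1.98 FPKM in forestomach. Those of its relative Hnf4g were 89.2 and 39.7 FPKM in colon, 130 and 130 FPKM in intestine, 35.6 and 22.2 FPKM in hindstomach, and 1.73 and 0.470 FPKM in forestomach. Hnf4g was called higher in hindstomach than in forestomach with all libraries, by 3.86 ± 0.48 (adjusted p = 0.0124), and Hnf4a was not called with all libraries but was without the library labelled forestomach replicate 1. Their part in the Cyp2c levels was not tested.

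**Figure D4:**
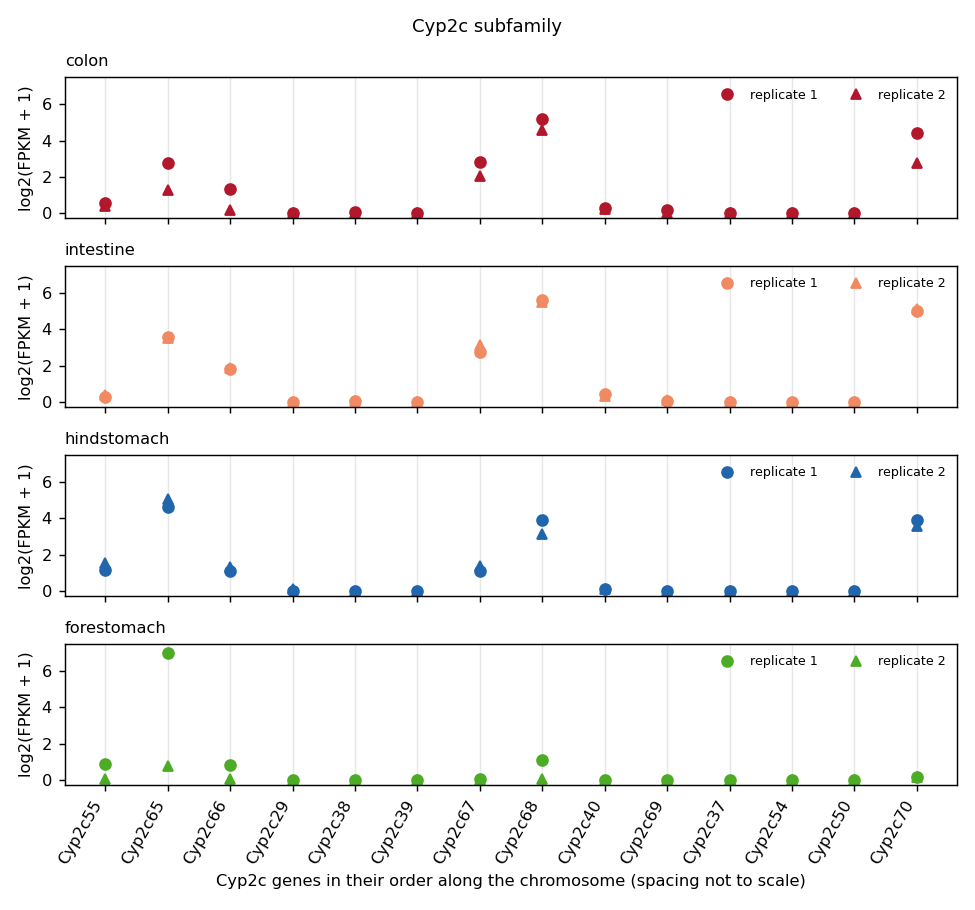
Each panel is a tissue, with the 14 Cyp2c genes in their order along the chromosome (spacing not to scale) and log2(FPKM + 1) on the vertical axis, circles for replicate 1 and triangles for replicate 2. Cyp2c65, Cyp2c67, Cyp2c68 and Cyp2c70 stand out in colon and intestine, Cyp2c65 leads in hindstomach, and in forestomach Cyp2c65 is high in replicate 1 (129 FPKM) and low in replicate 2 (0.698 FPKM).

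In the Cyp2d subfamily, whose human member CYP2D6 oxidises many drugs, 1 gene carried most of the signal. Cyp2d26 (chromosome 15, 82790101 to 82794294) measured 98.4 and 37.3 FPKM in colon, 75.3 and 121 FPKM in intestine, 77.5 and 116 FPKM in hindstomach, and 1.39 and 2.23 FPKM in forestomach. Colon, intestine and hindstomach overlapped, and the forestomach libraries lay far below all 6. Hindstomach exceeded forestomach by 5.11 ± 0.51 on the log2 scale (adjusted p = 0.00644). Cyp2d22 measured 7.08 and 5.26 FPKM in colon, 4.67 and 7.61 FPKM in intestine, 1.69 and 2.34 FPKM in hindstomach, and 4.73 and 0.129 FPKM in forestomach. It was called in no comparison with all libraries. In the fit that left out the library labelled forestomach replicate 1 it exceeded hindstomach by 1.25 in colon (adjusted p = 0.0423) and by 1.22 in intestine (adjusted p = 0.0232).

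Cyp2d34 was low, at 2.23 and 1.46 FPKM in colon, 0.0866 and 0.0824 FPKM in intestine, 0.0968 and 0.239 FPKM in hindstomach, and 1.005 and 0 FPKM in forestomach. Colon exceeded intestine by 1.38 ± 0.36 with all libraries (adjusted p = 0.277), and was called without the library labelled forestomach replicate 1 (adjusted p = 0.0387). Cyp2d10, at 0.911 and 1.14 FPKM in colon, 0.125 and 0.0304 FPKM in intestine, 0.418 and 0.176 FPKM in hindstomach, and 3.64 and 0 FPKM in forestomach, was not called, and 35.8% of its stretches are shared with other genes. The other 4 Cyp2d genes stayed below 0.5 FPKM.

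Levels of liver transcripts are given here because Cyp2d and Cyp2c genes are abundant in adult liver, and the liver adjoins the gut at dissection. The 7 liver markers in the table (albumin and other plasma proteins) summed to 152 and 164 FPKM in colon, 290 and 136 FPKM in intestine, 427 and 226 FPKM in hindstomach, and 139 and 2.23 FPKM in forestomach. All 7 were above 0 in the colon, intestine and hindstomach libraries, and 3 were at 0 in forestomach replicate 2. Between replicates the marker sum and Cyp2d26 went opposite ways in each of colon, intestine and hindstomach, but single markers did not all follow the sum. Ttr, Apoh, Ahsg and Fgb in colon, Serpina1a in intestine and Ttr in hindstomach went the same way as Cyp2d26. The part of liver transcripts in the Cyp2d26 values was not tested. Cyp3a11 and Cyp2e1, main P450 genes of the adult liver, were at most 0.235 and 0.0573 FPKM in these 6 libraries. No liver library was among the samples, so the levels of these genes in liver at E16.5 are not known here. The fetal liver form Cyp3a16 measured 0 and 0.00561 FPKM in colon, 0.172 and 0 FPKM in intestine, 0.645 and 0.112 FPKM in hindstomach, and 0 FPKM in both forestomach libraries. The 3 libraries in which it exceeded 0.1 FPKM were those with the most albumin transcript. Alb was at 47.8 FPKM in intestine replicate 1 and 168 and 57.2 FPKM in hindstomach, against 6.49 FPKM or less in the other 5. Apoh and Ahsg were also highest in those 3 libraries, whereas Afp, Ttr, Fgb and Serpina1a were not. Afp, for 1, was at 126 FPKM in colon replicate 2 and 32.7 FPKM in hindstomach replicate 2. The part of liver transcripts in the Cyp3a16 values was not tested. Pancreatic acinar transcripts summed to 1378 and 422 FPKM in colon, 2218 and 369 FPKM in intestine, 3411 and 889 FPKM in hindstomach, and 7.04 and 0.196 FPKM in forestomach. Their part in the difference between hindstomach and forestomach was not tested.

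Cyp2w1, known in man from fetal colon and from colorectal tumours, measured 73.2 and 40.3 FPKM in colon, 52.2 and 57.7 FPKM in intestine, 13.9 and 20.3 FPKM in hindstomach, and 0.0581 and 24.1 FPKM in forestomach. Colon and intestine overlapped and lay above every stomach library. The forestomach libraries were the farthest apart, with the library labelled forestomach replicate 1 near 0. With all libraries the gene was called in no comparison, and without that library it exceeded hindstomach by 1.63 ± 0.32 in colon (adjusted p = 0.0316) and by 1.65 ± 0.32 in intestine (adjusted p = 0.0170).

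Cyp2j6 belongs to a subfamily of arachidonic acid epoxygenases and measured 57.5 and 28.1 FPKM in colon, 71.8 and 85.0 FPKM in intestine, 25.5 and 22.8 FPKM in hindstomach, and 34.1 and 3.73 FPKM in forestomach. Intestine lay above all other libraries. Intestine exceeded hindstomach by 1.66, called without the library labelled forestomach replicate 1 (adjusted p = 0.0185, against 0.302 with all libraries). Among the other 6 Cyp2j genes Cyp2j9 alone was tested, and it stayed between 0.306 and 1.49 FPKM with no call.

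Cyp2s1, an extrahepatic P450 of epithelia that dioxin induces through the aryl hydrocarbon receptor, was highest in the stomach. It measured 18.0 and 22.9 FPKM in colon, 10.95 and 9.67 FPKM in intestine, 48.8 and 76.5 FPKM in hindstomach, and 127 and 31.6 FPKM in forestomach. Each stomach library exceeded each colon library, and each colon library exceeded each intestine library. Intestine was lower than hindstomach by −2.46 ± 0.62 with all libraries (adjusted p = 0.0756), and this was called without the library labelled forestomach replicate 1 (adjusted p = 0.00326). The receptor gene Ahr measured 3.67 and 4.90 FPKM in colon, 3.51 and 2.85 FPKM in intestine, 7.77 and 6.90 FPKM in hindstomach, and 3.60 and 7.09 FPKM in forestomach, with no call. Its classical targets Cyp1a1 and Cyp1a2 stayed at or below 0.151 FPKM in every library, and Cyp1b1 reached 2.70 FPKM in forestomach replicate 1 and stayed below 1 FPKM elsewhere.

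Cyp2u1, a hydroxylase of long-chain fatty acids, was low in all tissues, at 1.63 and 0.997 FPKM in colon, 2.18 and 2.52 FPKM in intestine, 0.296 and 0.384 FPKM in hindstomach, and 0.388 and 0.0239 FPKM in forestomach. The intestine libraries were the highest, and exceeded hindstomach by 1.32 ± 0.25 (adjusted p = 0.0433). The call was lost without a filter on low values (adjusted p = 0.0517), with a pseudocount of 0.1 (adjusted p = 0.104) and with a replicate block (adjusted p = 0.0875). In addition 9.55% of its 50-base stretches lie opposite an antisense transcript, and the strand setting of the counting is not given in the sources used here.

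Another set of family 2 genes was high in forestomach replicate 2. Cyp2f2, which activates naphthalene in club cells of the mouse lung, measured 0.146 and 0.187 FPKM in colon, 0.0653 and 0.0495 FPKM in intestine, 5.72 and 0.163 FPKM in hindstomach, and 7.66 and 134 FPKM in forestomach. Cyp2a5, the mouse coumarin hydroxylase, measured 0 and 0.00468 FPKM in colon, 0.00399 and 0 FPKM in intestine, 1.54 and 0.112 FPKM in hindstomach, and 0.128 and 9.33 FPKM in forestomach. Both had hindstomach replicate 1 well above hindstomach replicate 2, and that library also had more squamous marker signal (187 against 12.5 FPKM over 8 genes). The part of squamous cells in the hindstomach values was not tested. With all libraries neither gene was called between hindstomach and forestomach (adjusted p = 0.145 for Cyp2f2 and 0.509 for Cyp2a5). On leaving out the library labelled forestomach replicate 1, hindstomach was lower by −5.60 ± 0.95 for Cyp2f2 (adjusted p = 0.00942) and by −2.62 ± 0.48 for Cyp2a5 (adjusted p = 0.0122). Of the Cyp2a5 stretches 37.0% are shared with other genes, mostly with Cyp2a4.

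Family 3 is the main drug-metabolising family of adult liver and gut. A single one of its 7 genes passed the filter for testing, Cyp3a13, which lies apart from the array of the other 6 on chromosome 5. Cyp3a13 measured 34.3 and 20.2 FPKM in colon, 36.7 and 52.9 FPKM in intestine, 16.1 and 19.9 FPKM in hindstomach, and 22.3 and 17.1 FPKM in forestomach. It was at 16.1 FPKM or more in every library, with the intestine libraries highest. Intestine exceeded hindstomach by 1.25 ± 0.32 with all libraries (adjusted p = 0.0797) and was called without the library labelled forestomach replicate 1 (adjusted p = 0.0291). The 6 clustered genes, among them Cyp3a11, a main form of the adult mouse, and Cyp3a16, a fetal liver form, stayed at or below 0.645 FPKM, the highest value being Cyp3a16 in hindstomach replicate 1.

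In family 4 most of the tested genes lay in 1 array. Of the 8 Cyp4f genes clustered on chromosome 17 from 32452723 to 32947402, 7 were tested, whereas none of the 7 Cyp4a, Cyp4b and Cyp4x genes clustered on chromosome 4 was. Cyp4v3, which was tested, and Cyp4f18, which was not, lie outside both arrays, on chromosome 8. Cyp4a10, a target of the fatty acid receptor PPARα, reached at most 0.388 FPKM, in intestine.

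Among the 7 tested Cyp4f genes of the cluster 4 had their highest mean level in colon or intestine. Cyp4f40 measured 23.3 and 13.2 FPKM in colon, 17.5 and 18.7 FPKM in intestine, 5.81 and 9.52 FPKM in hindstomach, and 0.0285 and 0.386 FPKM in forestomach. Colon and intestine overlapped, and the 3 levels of colon with intestine, hindstomach and forestomach were separate. Hindstomach exceeded forestomach by 2.83 ± 0.35 (adjusted p = 0.0126). Cyp4f16 measured 7.35 and 7.16 FPKM in colon, 20.7 and 32.9 FPKM in intestine, 8.36 and 10.1 FPKM in hindstomach, and 7.26 and 1.94 FPKM in forestomach. It was at its highest in intestine, and colon was lower than intestine by −1.72 ± 0.50 with all libraries (adjusted p = 0.309). This was called without the library labelled forestomach replicate 1 (adjusted p = 0.0277), and 17.4% of its stretches are shared, mostly with Cyp4f37.

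Cyp4f14, a leukotriene B4 hydroxylase of the mouse, was low, at 1.15 and 0.786 FPKM in colon, 2.22 and 2.04 FPKM in intestine, 0.334 and 0.201 FPKM in hindstomach, and 0.0476 and 0.00746 FPKM in forestomach. Its tissues formed 4 separate levels. Intestine exceeded hindstomach by 1.31 ± 0.20 (adjusted p = 0.0259, and 0.0628 with a replicate block). Cyp4f13 measured 15.9 and 7.86 FPKM in colon, 13.7 and 18.6 FPKM in intestine, 4.79 and 7.85 FPKM in hindstomach, and 7.06 and 3.65 FPKM in forestomach, with no call in any comparison.

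The other 3 tested Cyp4f genes had their highest mean level in hindstomach or forestomach. Cyp4f39, whose human counterpart CYP4F22 hydroxylates very long-chain fatty acids for the acylceramides of the skin barrier, measured 0.196 and 0.164 FPKM in colon, 0.222 and 0.167 FPKM in intestine, 4.86 and 6.08 FPKM in hindstomach, and 5.99 and 222 FPKM in forestomach. The forestomach replicate 2 value was the highest of any P450 gene in any library, and the hindstomach libraries were well above colon and intestine. With all libraries no comparison was called (hindstomach minus forestomach −2.62 ± 1.44, adjusted p = 0.262). In the fit that left out the library labelled forestomach replicate 1, hindstomach was lower than forestomach by −5.11 ± 0.19 (adjusted p = 0.00031), and colon was lower than hindstomach by −2.45 ± 0.16 (adjusted p = 0.00161). Against the library labelled forestomach replicate 1 alone the hindstomach difference was −0.12 (adjusted p = 0.659). Cyp4f17 measured 2.24 and 3.55 FPKM in colon, 1.25 and 1.33 FPKM in intestine, 1.93 and 2.86 FPKM in hindstomach, and 3.45 and 7.99 FPKM in forestomach. It was also highest in forestomach replicate 2, and against that library alone hindstomach was lower by −1.42 ± 0.29 (adjusted p = 0.0166).

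Cyp4f15 measured 0.0535 and 0.0595 FPKM in colon, 0.119 and 0.0439 FPKM in intestine, 1.42 and 3.66 FPKM in hindstomach, and 0.545 and 0.149 FPKM in forestomach. Cyp4v3, whose human counterpart CYP4V2 is a fatty acid hydroxylase mutated in a crystalline dystrophy of the retina, measured 0.695 and 0.941 FPKM in colon, 0.504 and 0.414 FPKM in intestine, 4.55 and 4.49 FPKM in hindstomach, and 3.51 and 0.330 FPKM in forestomach. Both genes had hindstomach libraries above all others. With the library labelled forestomach replicate 1 left out, both were called lower than hindstomach in colon (Cyp4f15 −1.67, adjusted p = 0.0342, and Cyp4v3 −1.60, adjusted p = 0.00521) and in intestine.

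Among the P450 genes of steroid and sterol metabolism, Cyp11a1 gave the one difference of colon from the rest. This mitochondrial enzyme turns cholesterol into pregnenolone, the first step of steroid hormone synthesis, and lies on chromosome 9 from 58006411 to 58027023. It measured 5.97 and 11.2 FPKM in colon, 0.411 and 0.466 FPKM in intestine, 0.218 and 0.0928 FPKM in hindstomach, and 0.246 and 0.478 FPKM in forestomach. Both colon libraries were more than 10-fold above every other library. Colon exceeded intestine by 2.68 ± 0.31 on the log2 scale (adjusted p = 0.0397) and hindstomach by 3.00 ± 0.31 (adjusted p = 0.0121). The difference from intestine lost its call with a pseudocount of 0.1 (adjusted p = 0.0830), without a filter on low values (adjusted p = 0.0529) and with a replicate block (adjusted p = 0.112), and both calls were lost on leaving out either intestine or either hindstomach library. Without either colon library the gene fell under the filter and was not tested.

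The other steroid P450 genes were near 0. Cyp17a1, Cyp19a1, Cyp21a1, Cyp11b1 and Cyp11b2 stayed at or below 0.0911 FPKM in all 8 libraries. The cholesterol carrier Star measured 0.657 and 0.620 FPKM in colon, 0.465 and 0.443 FPKM in intestine, 0.244 and 0.647 FPKM in hindstomach, and 4.61 and 0.476 FPKM in forestomach. Hsd3b3, a 3-beta-hydroxysteroid dehydrogenase that acts on pregnenolone, measured 4.81 and 1.84 FPKM in colon, 5.14 and 5.44 FPKM in intestine, 0.592 and 0.497 FPKM in hindstomach, and 0.00138 and 0 FPKM in forestomach. It was called higher in intestine than in hindstomach, by 2.03 ± 0.35 (adjusted p = 0.0327), and was not higher in colon than in intestine. Mesenchymal and smooth muscle markers, 10 genes, summed to 618 and 1344 FPKM in colon, 299 and 65.7 FPKM in intestine, 162 and 296 FPKM in hindstomach, and 3415 and 29.7 FPKM in forestomach. All 10 were above 0 in every library, the sum was higher in colon than in intestine or hindstomach, and within colon it was higher in replicate 2, as was Cyp11a1. Cyp11a1 stayed at 0.246 FPKM in forestomach replicate 1, the library with the highest sum. There Acta2, Tagln, Myh11 and Des exceeded both colon libraries (Acta2 at 1327 FPKM, against 210 and 443 FPKM in colon). Vim, Col1a1, Col1a2, Col3a1 and Pdgfrb were below both (Col1a1 at 38.3 FPKM, against 93.6 and 193 FPKM), and Pdgfra lay between. The part of mesenchyme in the colon value was not tested. Endothelial markers, 6 genes, summed to 18.0 and 50.6 FPKM in colon, against 16.4 and 2.64 FPKM in intestine.

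Cyp27a1, the mitochondrial sterol 27-hydroxylase of the acidic bile acid pathway, was the one member called higher in forestomach with all libraries. It measured 0.417 and 0.526 FPKM in hindstomach, against 4.84 and 5.29 FPKM in forestomach, and hindstomach was lower by −2.04 ± 0.21 (adjusted p = 0.0071). Colon (1.16 and 1.71 FPKM) and intestine (0.833 and 0.684 FPKM) lay between them. It is one of the few members whose forestomach libraries were alike, and the change was about as large without the library labelled forestomach replicate 1 (−2.10, adjusted p = 0.00246).

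Cyp39a1, the hydroxylase of 24-hydroxycholesterol, measured 2.69 and 4.80 FPKM in colon, 1.92 and 1.38 FPKM in intestine, 7.59 and 5.74 FPKM in hindstomach, and 5.91 and 6.62 FPKM in forestomach. Hindstomach and forestomach overlapped, colon lay below them, and intestine was lowest. Intestine was lower than hindstomach by −1.53 ± 0.29 (adjusted p = 0.0419, with 0.0756 without a filter on low values and 0.0895 with a replicate block). Cyp7b1, another oxysterol hydroxylase, measured 0.854 and 2.44 FPKM in colon and at most 1.77 FPKM elsewhere, with no call. Cyp46a1, the cholesterol 24-hydroxylase of brain, reached 1.49 FPKM in colon replicate 2. The rate-limiting bile acid gene Cyp7a1 stayed at or below 0.0564 FPKM, and the sterol 12-alpha-hydroxylase Cyp8b1 was listed at 3.55 FPKM in forestomach replicate 2 and at or below 0.0626 FPKM in the other 7 libraries.

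The P450 genes of retinoic acid and vitamin D named here stayed below 1 FPKM, except Cyp26b1 and Cyp2r1 in forestomach replicate 2. Cyp26b1, which degrades retinoic acid, was at 10.5 FPKM there and at or below 0.954 FPKM in every other library, and was therefore not tested. The retinoic acid carrier Crabp2 was at 113 FPKM in the same library and at or below 2.90 FPKM elsewhere. Cyp26a1 and Cyp26c1 stayed at or below 0.252 FPKM. The vitamin D 25-hydroxylase Cyp2r1 reached 1.15 FPKM in forestomach replicate 2, while Cyp27b1 and Cyp24a1, which activate and degrade the hormone, stayed at or below 0.699 and 0.0101 FPKM. Each of these forestomach values is from 1 library. Cyp20a1, a member without an established substrate, was by contrast above 4 FPKM in every library, at 13.4 and 16.9 FPKM in colon, 11.6 and 8.77 FPKM in intestine, 15.8 and 15.5 FPKM in hindstomach, and 9.30 and 4.11 FPKM in forestomach. Its one call in the comparisons, hindstomach over forestomach by 1.70 ± 0.22 (adjusted p = 0.00415), came without the library labelled forestomach replicate 1.

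**Figure D5:**
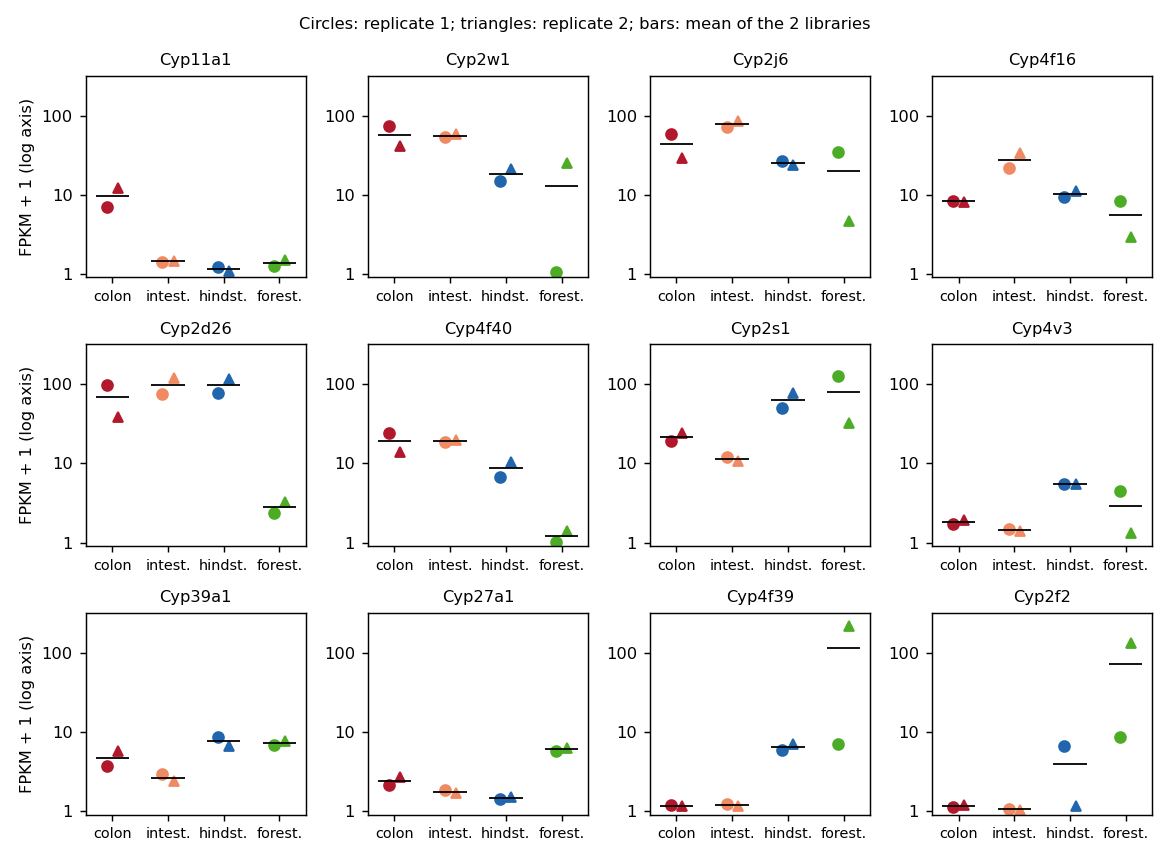
Panels give FPKM + 1 on a log axis for 12 P450 genes, with colon, intestine, hindstomach and forestomach from left to right, circles for replicate 1, triangles for replicate 2 and a bar at the mean of the 2 libraries. Cyp11a1 is high in colon alone, Cyp2d26 and Cyp4f40 are low in forestomach alone, Cyp27a1 is highest in both forestomach libraries, and the forestomach points of Cyp2w1, Cyp4f39 and Cyp2f2 lie far apart.

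Over the 32 tested members the highest mean level was in colon for 6, in intestine for 12, in hindstomach for 5 and in forestomach for 9. Among the 9, the library labelled forestomach replicate 1 was the highest for Cyp2c65, Cyp2s1, Cyp2d10 and Cyp2b10. The same tally was not made over all genes. Replicates more than 2-fold apart on the log2(FPKM + 1) scale made up 5 of the 32 in colon, 0 in intestine, 2 in hindstomach and 17 in forestomach, against 7.37%, 2.9%, 2.09% and 33% of all genes tested. Among the members these shares were 15.6% in colon, 0% in intestine, 6.25% in hindstomach and 53.1% in forestomach. In colon all 5 were higher in replicate 1, the colon library with the higher sum of intestinal epithelial markers (9486 against 3014 FPKM over 8 genes). Most of that sum was Apoa4 (5177 against 1461 FPKM) and Fabp2 (2970 against 828 FPKM), whereas Cdx1 was at 138 and 134 FPKM. The pan-epithelial markers Cdh1, Krt8 and Krt18 were higher in colon replicate 2, and Epcam was higher in replicate 1. The part of these marker differences in the colon values was not tested.

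The partners and regulators of P450 enzymes were read from lists that had been assembled with earlier results of these data known. Por, the reductase that supplies electrons, measured 40.8 and 29.9 FPKM in colon, 45.4 and 46.3 FPKM in intestine, 43.6 and 52.0 FPKM in hindstomach, and 33.98 and 92.3 FPKM in forestomach, and was not called. Of 18 tested genes for electron donors and haem supply, Pgrmc2 was the one called with all libraries, higher in intestine than in hindstomach by 1.38 ± 0.27 (adjusted p = 0.0473, against 2.55% of all genes called higher there), and the list's median log2 fold changes lay between −0.15 and 0.12. Pgrmc2, a haem-binding membrane protein that associates with P450 enzymes, measured 71.8 and 42.2 FPKM in colon, 101 and 115 FPKM in intestine, 43.9 and 38.2 FPKM in hindstomach, and 19.5 and 21.4 FPKM in forestomach. The fit that left out the library labelled forestomach replicate 1 called Pgrmc2 as well, and called Alad and Hmox1, for haem synthesis and breakdown, lower in hindstomach than in forestomach (2 of 18, against 6.55% of all genes).

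Among 17 tested regulators 3 were called higher in hindstomach than in forestomach (Hnf4g, Nr1h4 and Nr5a2) and 2 higher in intestine than in hindstomach (Nr1h3 and Nr5a2), with 0 lower in either (against 4.26% higher and 1.33% lower, and 2.55% higher and 2.47% lower, of all genes tested). In the colon comparisons limma called 0, with 0 regulators at an unadjusted p under 0.05 against intestine and 3 against hindstomach. With the library labelled forestomach replicate 1 left out, 7 regulators were called higher in hindstomach than in forestomach (against 14.3% of all genes) and 2, Cebpa and Cebpb, lower (against 6.55%). That fit also called 9 higher in intestine than in hindstomach (against 7.42%) and 5 higher in colon than in hindstomach (Hnf4a, Nr1h3, Nr1h4, Nr5a2 and Cebpa, against 4.49%). Between colon and intestine it called 0, with 8 at an unadjusted p under 0.05. Nr1h4, the bile acid receptor FXR, measured 74.8 and 47.9 FPKM in colon, 86.9 and 98.6 FPKM in intestine, 15.4 and 17.003 FPKM in hindstomach, and 3.07 and 0.109 FPKM in forestomach. Nr5a2 (LRH-1), a regulator of bile acid synthesis, measured 10.9 and 8.71 FPKM in colon, 9.96 and 9.55 FPKM in intestine, 3.18 and 1.36 FPKM in hindstomach, and 0.0403 and 0 FPKM in forestomach. Nr1h3, the oxysterol receptor LXRα, measured 8.66 and 5.45 FPKM in colon, 11.3 and 12.3 FPKM in intestine, 2.66 and 2.16 FPKM in hindstomach, and 1.87 and 0.542 FPKM in forestomach. All 3 receptors were higher in every colon and intestine library than in every hindstomach library, and higher there than in every forestomach library. Intestine exceeded hindstomach by 1.91 ± 0.36 for Nr1h3 (adjusted p = 0.0410) and by 1.78 ± 0.31 for Nr5a2 (adjusted p = 0.0330). The drug receptor Nr1i2 (PXR) measured 40.6 and 25.99 FPKM in colon, 39.5 and 47.5 FPKM in intestine, 33.0 and 44.5 FPKM in hindstomach, and 10.5 and 1.53 FPKM in forestomach. Nr1i3 (CAR) was lower throughout, at 5.49 and 1.69 FPKM in colon, 5.33 and 7.97 FPKM in intestine, 0.928 and 1.497 FPKM in hindstomach, and 0.00999 and 0.0122 FPKM in forestomach. Neither drug receptor was called with all libraries. In the fit without the library labelled forestomach replicate 1, Nr1i2 was called higher in hindstomach than in forestomach, there 1 library. That fit also called Nr1i3 higher in intestine than in hindstomach. The well known targets of these 2 receptors, Cyp3a11 and Cyp2b10, were at or below 0.235 and 2.04 FPKM in all libraries. Cyp2b10 was at 0.272 FPKM or more in the stomach libraries and at or below 0.0274 FPKM in colon and intestine.

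Of the 4 tested genes of epoxide hydrolases and P450 enzymes with other symbols, Ephx1, the microsomal epoxide hydrolase, was called lower in intestine than in hindstomach. It measured 1.23 and 1.99 FPKM in colon, 0.640 and 0.197 FPKM in intestine, 7.78 and 11.3 FPKM in hindstomach, and 29.0 and 18.3 FPKM in forestomach, and intestine was lower than hindstomach by −2.89 ± 0.34 (adjusted p = 0.0147, with 2.47% of all genes called lower there). In the fit that left out the library labelled forestomach replicate 1 it was also called lower in colon than in hindstomach. The soluble hydrolase Ephx2 had the opposite order, at 109 and 41.4 FPKM in colon, 167 and 212 FPKM in intestine, 52.5 and 63.3 FPKM in hindstomach, and 39.1 and 5.09 FPKM in forestomach. It was called higher in intestine than in hindstomach without the library labelled forestomach replicate 1, by 1.69 (adjusted p = 0.0368), and that fit also called it higher in hindstomach than in forestomach. Of 18 tested genes of sterol synthesis and 9 of retinoic acid metabolism, limma called 0 in any of the 4 comparisons with all libraries, and at an unadjusted p under 0.05 there were 0 to 1 sterol synthesis genes and 0 to 2 retinoic acid genes per comparison. Once the library labelled forestomach replicate 1 was left out, 5 sterol synthesis genes (Fdps, Mvk, Nsdhl, Hsd17b7 and Tm7sf2) were called lower in hindstomach than in forestomach (5 of 18, against 6.55% of all genes) and 1, Dhcr7, higher in intestine than in hindstomach (1 of 18, against 7.42%). In the same fit Aldh1a2, which makes retinoic acid, was higher in hindstomach than in forestomach and in colon than in intestine, and Crabp2 was lower in hindstomach than in forestomach. Cyp51, the P450 of sterol synthesis, ranged from 26.1 to 62.5 FPKM over the 8 libraries with no call.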

How the data were processed

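The authors deposited 1 table of FPKM values per gene symbol and library. STAR 2.4.2a and the mm10 (GRCm38) build are named per the submitters' processing notes. How FPKM was computed, with which annotation and strand setting, is not stated there, so a gene's reads may be split with an antisense or near-identical neighbour. Because FPKM is relative to library size, a few dominant genes in a library lower its other values. A further 4 columns match no listed sample and were not used. Genes reaching 1 FPKM in 2 or more libraries were tested with limma 3.58.1 in R 4.3.3 on log2(FPKM + 1), which understates changes of low genes. The fit had 4 tissue means, a mean-variance trend and 4 residual degrees of freedom (3 without forestomach replicate 1), and Benjamini-Hochberg adjustment ran over all genes tested within each of the 4 comparisons. The fit was tested on simulated data whose spread came from the intestine and hindstomach pairs. That test does not cover the wider spread of the forestomach pair. Named members are those called in any comparison in either fit, the 5 highest in each tissue and those reaching 5 FPKM, and other low members were named after their values were seen. The members and gene lists were chosen with earlier results of these data known. Positions are from GENCODE M21 and promoters from RefSeq, with 73 of 92 members matched. Shared sequence was counted as exact 50-base stretches of a gene's transcripts found in transcripts of other genes. Alternatives were a pseudocount of 0.1, no filter or one of 5 FPKM, median-of-ratios scaling, no trend, a fit of just the 2 tissues compared, a block for replicate number, and leaving out single libraries.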

Additional observations from a re-analysis of the deposited data

How the results depend on the processing

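The depth behind each value is unknown, and with 2 libraries a tissue the calls depend on the pooled spread. In the number of members called, hindstomach minus forestomach gave 5, between 4 and 6 under the other pseudocount, filters, scaling and variance settings, 2 with only the 2 tissues compared, and 0 to 17 as each library was left out. Intestine minus hindstomach gave 4, with 1 without a filter on low values, 2 with the filter of 5 FPKM, 19 with only the 2 tissues compared, and 0 to 16 as each library was left out. Colon minus intestine gave 1, with 0 under a pseudocount of 0.1, without a filter, with the filter of 5 FPKM and with only the 2 tissues compared, and 0 to 3 as each library was left out. Colon minus hindstomach gave 1, with 6 when only the 2 tissues were compared, and 0 to 10 as each library was left out. The cause of these changes was not tested, though every fit that leaves out a library has fewer samples. A replicate block gave 5, 1, 0 and 1 called members in the same order of comparisons. It changed the calls of Cyp2c67, Cyp2u1, Cyp39a1, Cyp4f14 and Cyp11a1 (colon minus intestine) as given with each, and added Cyp2c68 for intestine minus hindstomach (adjusted p = 0.0433). The shared replicate numbers are not taken as pairs, since deviations from the tissue means correlated between −0.578 (colon with intestine) and 0.270 (intestine with hindstomach). In direction, hindstomach minus forestomach reversed for Cyp2d22 to −0.016 under median-of-ratios scaling. As each library was left out its log2 fold change ran between −0.93 and 1.41, that of Cyp2j6 between −0.49 and 2.41 and that of Cyp2c65 between −2.18 and 4.09, with the lowest value without forestomach replicate 2 and the highest without forestomach replicate 1. Over all genes the called number was 721 for hindstomach minus forestomach, with 455 under scaling, 335 with a block, 79 with only the 2 tissues and 75 to 3126 as each library was left out. For intestine minus hindstomach it was 648, with 392 without a filter, 237 with a block, 2296 with only the 2 tissues and 0 to 2173 with a library left out. For colon minus intestine it was 49, with 22 under a pseudocount of 0.1, 12 with the filter of 5 FPKM, 9 with a block, 29 with only the 2 tissues and 0 to 317 with a library left out. For colon minus hindstomach it was 194, with 103 under a pseudocount of 0.1, 99 with a block, 694 with only the 2 tissues and 0 to 949 with a library left out.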
